A study of Mus musculus with 4 samples.

Results

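The genes described here encode subunits of the mitochondrial respiratory chain and of ATP synthase, measured by mRNA-seq in primary mouse vascular smooth muscle cells (VSMCs). They were chosen by symbol (the Nduf, Sdh, Uqcr, Cox and Atp5 families of the nuclear genome and the mt-Nd, mt-Co, mt-Atp and mt-Cytb genes of the mitochondrial genome) and by a minimum of 10 counts in each of the 4 libraries. Of 48587 genes in the table, 96 matched the symbols and 93 also passed the minimum, 80 of 83 nuclear genes and 13 of 13 mitochondrial genes. The 3 that did not pass were Cox7b2 and Cox8c, at 0 counts in every library, and Cox8b, at 5 counts in shCTR A and 0 in the others. Just inside the minimum lay mt-Atp8, with a lowest library of 10 counts, and then Cox7a1, with a lowest library of 32 counts.

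The cells were grown out from the descending aorta of C57BL/6J mice after the endothelium and adventitia had been removed, and were transduced with lentivirus. In shMettl14 libraries the hairpin targeted Mettl14, a subunit of the nuclear methyltransferase that writes m6A on RNA. In shCTR libraries it was a negative control directed at a plant microRNA sequence, so both groups carry a lentiviral hairpin. Each group has 2 libraries, lettered A and B, and no source says that a letter stands for a culture or a day in common, so the spread between libraries may be technical. Totals were 114343653 to 124815868 counts per library. Mettl14 stood at 18.0 and 19.9 CPM (counts relative to library totals scaled by TMM) in shCTR A and B and at 4.60 and 4.37 in shMettl14 A and B. Its log2 fold change was −2.08 (SE 0.25). In edgeR's quasi-likelihood test its unadjusted p was 0.00039 and its adjusted p 1.0. The adjusted p was 3.05e-07 in DESeq2 and 0.0039 in edgeR with the letter as a replicate block.

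The markers of smooth muscle were abundant in sum, led by Acta2 and Tagln. Their summed levels were 6799, 5772, 4442 and 4811 CPM in shCTR A, shCTR B, shMettl14 A and shMettl14 B. Myocd, the coactivator that defines the lineage, had 62 and 109 counts in the A libraries and 767 and 859 in the B libraries. The 6 endothelial markers summed to 1183, 1814, 1238 and 1331 CPM in the same order, led by Cdh5 and Pecam1. Kdr and Tek were far lower, at 575 to 1053 and 573 to 1281 counts. Of 17 listed genes of striated muscle, the 10 tested summed to 40.6, 28.3, 16.5 and 26.6 CPM. Their median log2 fold change was −2.04, with letter medians of −2.45 in A and −0.40 in B. Some of them, such as Myh4 and Ckm, passed the filter of the test only through the shCTR libraries. This median is therefore partly set by the filter. Myod1 and Myog were at 0 throughout. In the same order of libraries, Myh4 had 625, 30, 0 and 0 counts and Myh6, outside the sum, 470, 0, 0 and 0. Acta1, with the most counts, had 1774, 1700, 1228 and 2382. In these bulk samples, fewer cells of a type and less RNA per cell cannot be told apart.

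As background, the respiratory chain sits in the inner mitochondrial membrane. Complex I takes electrons from NADH and complex II from succinate, complex III passes them from ubiquinol to cytochrome c, and complex IV gives them to oxygen. Complexes I, III and IV pump protons as they do so, and ATP synthase uses the returning protons to make ATP. Complex II is encoded wholly in the nucleus. The others combine nuclear subunits with subunits translated inside the organelle, so their assembly draws on messages from separate genomes. The contractile state of arterial smooth muscle is known to rest on both glycolytic and oxidative ATP.

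Sequence is shown first for mitochondrial genes, because copies elsewhere may bear on their counts, which was not tested. A block of 4663 bases on chromosome 1 of GRCm38 (chr1:24611535-24616197) holds 7 annotated pseudogenes that match mitochondrial genes. Within it, 30 bases of Gm28661 are identical to 30 bases of mt-Co2, and in mt-Nd4 the shared stretch ends at base 876 of 1378. Capitals mark bases shared by the mitochondrial gene and its chromosome 1 copy, and each line is read 5′ to 3′ on the strand of the gene.
mt-Co2, chrM:7355-7384, plus strand: GACCTATGCTTTGATTCATATATAATCCCA
Gm28661, chr1:24615194-24615223, minus strand: GACCTATGCTTTGATTCATATATAATCCCA
mt-Nd4, chrM:11028-11057, plus strand: TACTCCTCAGTTAGCcacatagcacttgtt

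For the nuclear genes, the promoter windows of RefSeq (250 bases before to 50 after the start, assembly GRCm38.p6) were searched on both strands for words of 3 factors known to act on genes of oxidative phosphorylation, and for a TATA word. Of 80 nuclear genes, 67 had an entry. The NRF1 word (GCGC, any base, T and GCGC) was in 16 of the 67 windows (23.9%) and in 4.78% of all 27025 windows. CCGGAAG, a word of the GABP complex, was in 15 (22.4%, against 9.12%), and AAGATGGCG, a word of YY1, in 7 (10.4%, against 1.5%). TATAAA was in 5 (7.46%, against 14.2%). At least 1 of the first 3 words was in 33 windows (49.3%, against 14%). The words of GABP and YY1 can overlap in the letters AAG. These are matches of letters and not shown to be bound here.

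The windows printed are from 4 genes whose values differ below. Cox6a1 and Ndufa11 were lower with shMettl14 in both letters, Atp5k was higher in both, and Sdhd was lower in A and higher in B. Cox6a1, Atp5k and Sdhd each carry the NRF1 and the GABP word, and the GABP word is printed for Sdhd only. Capitals mark the word, and each line runs 5′ to 3′ on the strand of the gene.
Cox6a1, NRF1 word, chr5:115349101-115349130, minus strand: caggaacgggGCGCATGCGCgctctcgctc
Ndufa11, NRF1 word, chr17:56717692-56717721, plus strand: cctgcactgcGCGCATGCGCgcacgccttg
Atp5k, NRF1 word, chr5:108434430-108434459, minus strand: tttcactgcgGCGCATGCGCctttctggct
Sdhd, NRF1 word as its reverse complement, chr9:50603909-50603938, minus strand: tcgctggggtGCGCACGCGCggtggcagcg
Sdhd, GABP word as its reverse complement, chr9:50603877-50603906, minus strand: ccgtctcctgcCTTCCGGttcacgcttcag

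Most nuclear members were slightly lower on average with the Mettl14 hairpin, but no member passed the test across all genes. At an adjusted p under 0.05, edgeR called 0 of 18916 genes (0% of those tested) and 0 of the 93 members. The targeted gene Mettl14 was among those not called, so this does not show that the members were unchanged. At an unadjusted p under 0.05 it called 315 genes (1.67%), 1.01% lower and 0.656% higher with shMettl14, and 1 member, Cox4i1. DESeq2 also called 0 members at an adjusted p. The median log2 fold change of the 80 nuclear members was −0.11, against 0.01 over all genes tested. Of the 80, 65 lay below 0 and 15 above, where of all 18916 genes 9230 lay below and 9686 above. The median of the nuclear members rests on single libraries. It was 0.10 without shCTR A and 0.02 without shMettl14 B, −0.33 without shCTR B and −0.36 without shMettl14 A.

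Within letters, 32 nuclear members (40.0%) were lower with shMettl14 in both, where 27.7% of all genes were. Another 8 (10%) were higher in both, where 30.0% of all genes were. The other 40 went opposite ways, as 42.3% of all genes did, with 25 lower in A and higher in B (22.0% of all genes) and 15 the reverse (20.3% of all genes). Both shMettl14 libraries lay below both shCTR libraries for 16 nuclear members, beside 13.3% of all genes, and above them for 3 (Ndufs1, Ndufs4 and Uqcrh), beside 14.7% of all genes. The 16 were Ndufs7, Ndufs8 and Ndufv2 of the core of complex I, Ndufa8, Ndufa10, Ndufa11, Ndufa12, Ndufb4, Ndufb10, Ndufs5 and Ndufv3 of its accessory subunits, Cox4i1 and Cox5b of complex IV, and Atp5b, Atp5h and Atp5j of ATP synthase. With library totals alone in place of TMM, 22 nuclear members were lower in both letters and 16 higher, and all genes then split 18.3% to 41.7%, with their median ratio moving from 0.03 to 0.14. Across the 80 genes the ratios of the letters were unrelated in rank (Spearman's rho −0.02), a description over genes that share libraries.

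**Figure D1:**
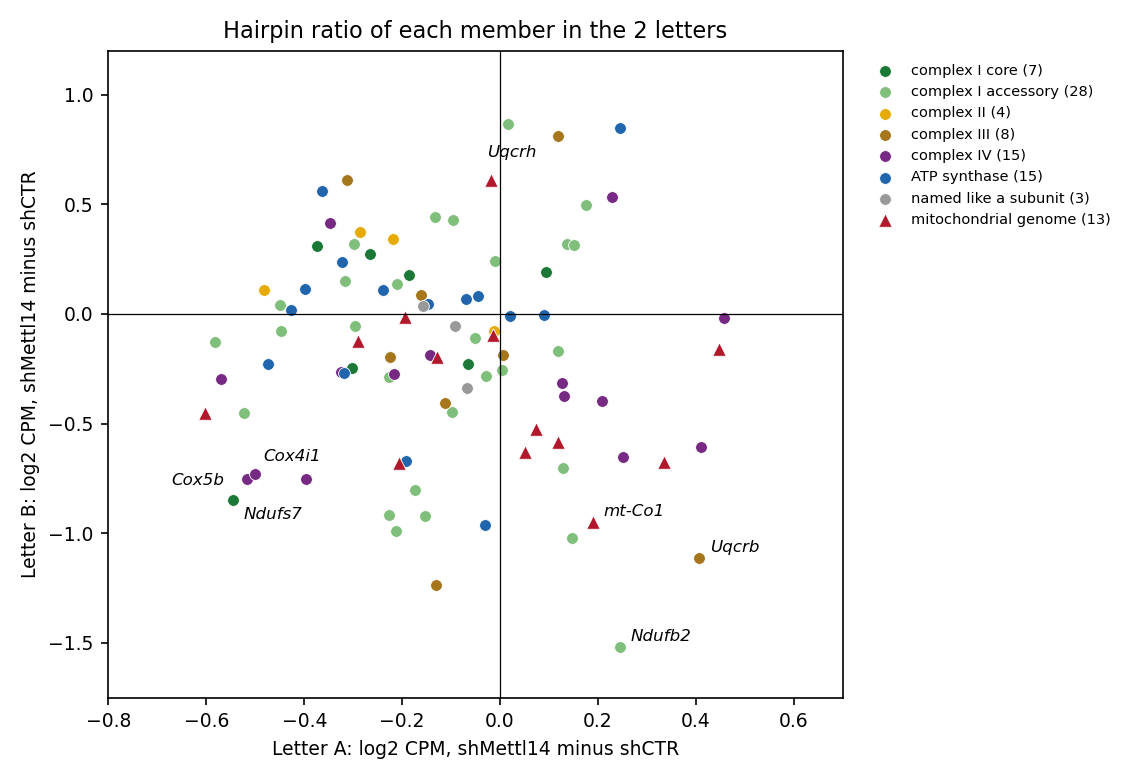
Each point is 1 of the 93 members, placed by its log2 CPM ratio of shMettl14 to shCTR in letter A (horizontal) and letter B (vertical), with colours for the role of the nuclear members and triangles for the mitochondrial genome. The 32 nuclear members lower in both letters lie in the lower left quadrant, with Cox4i1, Cox5b and Ndufs7 far from 0 in both.

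Complex I has 35 nuclear members here, 7 core subunits, which carry the flavin, the iron-sulphur clusters and the quinone site, and 28 accessory subunits. The core set had a median log2 fold change of −0.11, with letter medians of −0.27 in A and 0.18 in B. Of the 7, 3 were lower and 1 higher in both letters (42.9% and 14.3%, against 27.7% and 30.0% of all genes). Ndufs7, an iron-sulphur subunit next to the quinone site (chr10:80249121-80256794), was at 38.9 and 31.7 CPM in shCTR A and B and at 26.7 and 17.6 CPM in shMettl14 A and B. The groups did not overlap, and its log2 fold change was −0.67 (SE 0.29, unadjusted p of 0.067 and adjusted p of 1.0 in edgeR). Ndufs8, which also holds iron-sulphur clusters, was at 38.2, 32.9, 31.0 and 27.8 CPM in the same order of libraries. Ndufs1, the largest core subunit, was at 66.5 and 67.4 against 70.9 and 76.9 CPM, the only core gene higher in both letters, with a log2 fold change of 0.14 (SE 0.19).

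Among the 28 accessory subunits the median log2 fold change was −0.20. In both letters 12 were lower and 4 higher (42.9% and 14.3%, against 27.7% and 30.0% of all genes). Both shMettl14 libraries lay below both shCTR libraries for 8, beside 13.3% of all genes. Ndufb10 stood at 65.3 and 51.9 CPM in shCTR A and B and at 45.5 and 37.9 CPM in shMettl14 A and B, a log2 ratio of −0.52 in A and −0.45 in B. Ndufa11, which spans the membrane, was at 74.2, 75.9, 64.1 and 38.2 CPM, so that its difference lay mostly in letter B (−0.99, against −0.21 in A). Ndufb4 was at 29.2, 36.6, 26.2 and 19.3 CPM, and 33.4% of its 100-base windows also occur in another annotated gene, so its counts are uncertain. The 4 members higher in both letters were Ndufa1, Ndufb3, Ndufb11 and Ndufs4.

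Ndufs4, an accessory subunit whose loss is a known cause of complex I deficiency, had 54.0 and 43.5 CPM with shCTR and 61.0 and 61.4 CPM with shMettl14. This was the highest log2 fold change of an Nduf gene, 0.33 (SE 0.21, unadjusted p of 0.17 in edgeR), and its groups did not overlap. Ndufb2 had the lowest, −0.72 (SE 0.51), and −0.03 without shCTR B, with levels of 3.71 and 8.26 CPM with shCTR and 4.40 and 2.87 CPM with shMettl14. Ndufa7 differed far more between letters than between hairpins, at 97.4 and 17.0 CPM with shCTR and 79.2 and 21.2 CPM with shMettl14.

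Complex II, succinate dehydrogenase, is shared with the citric acid cycle, and of its 4 subunits only Sdha had a ratio of the same sign in both letters. Sdha, the flavoprotein and the most abundant Sdh gene in CPM, was at 201 and 215 CPM in shCTR A and B and at 199 and 204 in shMettl14 A and B, with overlapping groups. Its log2 fold change was −0.04 (SE 0.18). Sdhb, the iron-sulphur subunit, was at 69.3, 41.4, 56.8 and 53.7 CPM in the same order. Sdhc and Sdhd, the membrane anchors, had log2 fold changes of −0.22 (SE 0.27) and −0.01 (SE 0.38). Sdhb, Sdhc and Sdhd were each lower in A (−0.29, −0.48 and −0.22) and higher in B (0.37, 0.11 and 0.34), and in each the shCTR B library was the lowest of the 4.

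Complex III has 8 nuclear members, with a median log2 fold change of −0.13. In both letters 3 were lower and 1 higher (37.5% and 12.5%, against 27.7% and 30.0% of all genes). Uqcrc1, a core subunit and the most abundant in CPM, was at 149, 113, 127 and 98.1 CPM in shCTR A, shCTR B, shMettl14 A and shMettl14 B, and its groups overlapped. Uqcrh, the hinge protein (chr4:116066965-116075071), was at 104 and 60.0 CPM with shCTR and at 113 and 105 CPM with shMettl14. Both shMettl14 libraries were above both shCTR libraries, with a log2 fold change of 0.41 (SE 0.31) that came mainly from letter B (0.81, against 0.12 in A) and was 0.07 without shCTR B. Uqcrq, a small subunit, was at 115, 86.8, 105 and 36.8 CPM, low in shMettl14 B alone, and its log2 fold change went from −0.51 to 0.06 without that library. Uqcrb was at 72.0 and 121 CPM with shCTR and at 95.5 and 56.0 CPM with shMettl14, higher in A (0.41) and lower in B (−1.11).

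Complex IV held Cox4i1 and Cox5b, the lowest of the Cox genes by log2 fold change. Of 15 nuclear members, 7 were lower and 1 higher in both letters (46.7% and 6.67%, against 27.7% and 30.0% of all genes). The median log2 fold change was −0.11. Cox4i1, the ubiquitous isoform of subunit 4 (chr8:120668222-120674207), was at 339 and 351 CPM in shCTR A and B and at 240 and 212 CPM in shMettl14 A and B, that is, at 345 ± 8.85 against 226 ± 19.4 CPM (SD, n = 2). Its groups lay well apart, and its log2 fold change was −0.61 (SE 0.19), −0.50 in A and −0.73 in B. It was the only member with an unadjusted p under 0.05 (0.024 in edgeR, 0.030 in DESeq2), and its adjusted p was 1.0 in both. It stayed between −0.52 and −0.70 with any 1 library left out. Of its exon bases, 9.94% overlap Emc8 on the other strand, and whether counting used strand is not stated.

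Cox5b, a zinc-binding subunit, was at 101 and 72.8 CPM with shCTR and at 70.5 and 43.2 CPM with shMettl14. Its log2 fold change equalled that of Cox4i1 to 2 decimals, −0.61 (SE 0.32, unadjusted p of 0.12 in edgeR), but shMettl14 A lay close to shCTR B. Cox6a1 was at 219 and 128 CPM with shCTR and 166 and 76.2 CPM with shMettl14, lower in both letters (−0.40 and −0.75) with overlapping groups. Cox6b2, known from testis, had the highest log2 fold change of the Cox genes, 0.35 (SE 0.40), at 9.83, 5.49, 11.5 and 7.97 CPM in shCTR A, shCTR B, shMettl14 A and shMettl14 B, and was −0.02 without shCTR B.

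**Figure D2:**
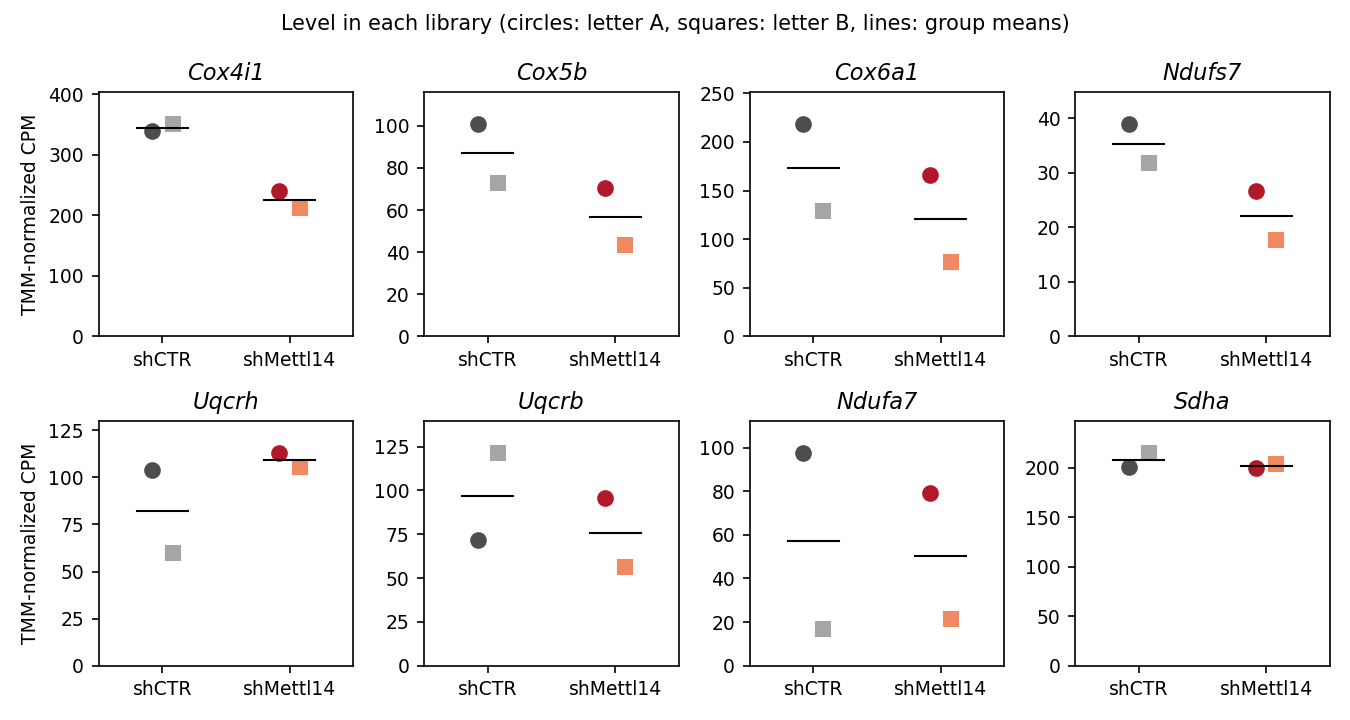
TMM-normalized CPM (vertical, from 0) in the 4 libraries for 8 nuclear members, with circles for letter A, squares for letter B and lines for the means of 2 libraries. The shCTR and shMettl14 libraries are well apart for Cox4i1 and do not overlap for Cox5b, Ndufs7 and Uqcrh. For Cox5b, shMettl14 A lies close to shCTR B, and for Uqcrh, shMettl14 B lies close to shCTR A. The libraries cross for Uqcrb and separate by letter for Ndufa7.

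Several Cox subunits exist as ubiquitous and as tissue-restricted isoforms, and these cells used the ubiquitous ones in both groups. Per kilobase of exon, Cox4i1 averaged 184 CPM per kb and Cox4i2, the isoform known from lung, 6.59 CPM per kb. Cox6a1 averaged 210 CPM per kb, and the striated muscle isoform Cox6a2 0.813. Cox7a2 averaged 56.6 CPM per kb and the striated muscle isoform Cox7a1 0.620, while Cox8a averaged 226 CPM per kb beside 5 counts in total for Cox8b. Cox4i2 was at 8.41 and 3.69 CPM with shCTR and 5.66 and 3.01 CPM with shMettl14, and it was higher in A than in B with either hairpin. Cox7a2l, a factor in supercomplex assembly that shares the family's name, averaged 112 CPM per kb with a log2 fold change of −0.06 (SE 0.19).

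ATP synthase has 15 nuclear members and a median log2 fold change of −0.07, with letter medians of −0.19 in A and 0.04 in B. In both letters 4 were lower and 1 higher (26.7% and 6.67%, against 27.7% and 30.0% of all genes). Atp5b, the catalytic beta subunit and the nuclear member with the most counts, was at 885 and 728 CPM in shCTR A and B and at 710 and 603 CPM in shMettl14 A and B. Its groups did not overlap, and the log2 fold change was −0.30 (SE 0.21, unadjusted p of 0.22 in edgeR). Atp5j, of the peripheral stalk, had the lowest log2 fold change of the family, −0.48 (SE 0.28), at 83.8, 106, 82.0 and 54.6 CPM, nearly all of it in letter B (−0.96, against −0.03 in A). Atp5k, subunit e at the dimer interface, had the highest, 0.41 (SE 0.66), at 19.7, 6.14, 23.4 and 11.1 CPM, and turned to −0.23 when shCTR B was left out.

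The 3 genes of the c-ring, Atp5g1, Atp5g2 and Atp5g3, encode the same mature protein behind different import sequences. Atp5g3 averaged 53.3 CPM per kb, Atp5g2 41.7 and Atp5g1 10.9. Atp5g2 was at 106 and 36.7 CPM with shCTR and at 82.5 and 54.1 CPM with shMettl14. All 3 were lower in A (−0.43, −0.36 and −0.32) and higher in B (0.02, 0.56 and 0.24), with the highest level in shCTR A. Atp5o shares all of its exon bases with Donson and another record of the same symbol on the same strand, so its counts cannot be assigned to it alone. Atp5s and Atp5sl carry the family name without being subunits, and they stood at 8.03 and 10.9 CPM in shCTR A with log2 fold changes of −0.07 (SE 0.26) and −0.19 (SE 0.28).

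The nuclear members were mostly lower in letter B than in letter A. With both hairpins, 53 of 80 nuclear members (66.2%) were lower in B than in A, where 36.7% of all genes were, and 3 were higher, where 35.5% of all genes were. The median difference of B minus A was −0.41 log2 units with shCTR and −0.45 with shMettl14, against −0.01 and −0.00 over all genes. In 43 of 80 (53.8%, against 54.1% of all genes) the difference between the shCTR libraries was larger than the hairpin ratio in either letter. With shCTR, 16 nuclear members were lower in B by over 1 log2 unit, where 13.5% of all genes were, and Ndufa7 differed most (−2.52, and −1.90 with shMettl14). Nuclear members made up 0.771% and 0.572% of all counts in shCTR A and B and 0.719% and 0.556% in shMettl14 A and B, so their share was lower in both B libraries.

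**Figure D3:**
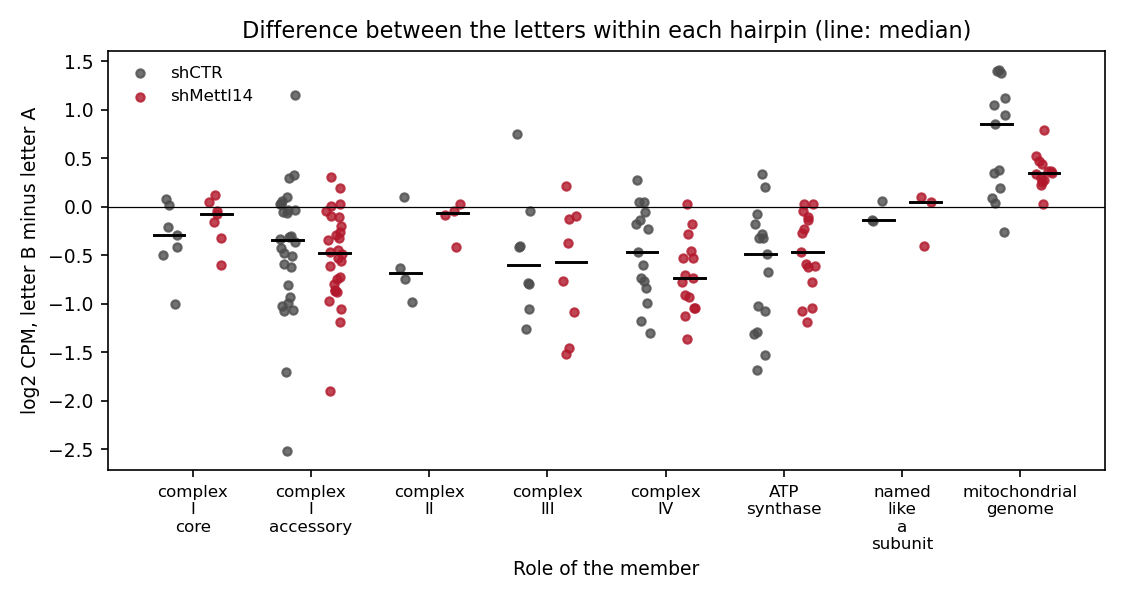
Difference of log2 CPM between letter B and letter A (vertical) for each member by role (horizontal), with grey points for shCTR, red points for shMettl14 and a black line at each median. Nuclear roles have medians below 0 with shCTR, while the mitochondrial genome has medians of 0.86 with shCTR and 0.35 with shMettl14.

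Hairpin ratios of members with and without each word were set side by side over the 67 promoter windows. With the NRF1 word, 8 of 16 members were lower and 1 higher in both letters and the median log2 fold change was −0.22, and of the 51 without it 20 were lower and 6 higher with a median of −0.09. With the YY1 word, 3 of 7 were lower and 1 higher with a median of −0.21, and of the 60 without it 25 were lower and 6 higher with a median of −0.11. With the GABP word the medians lay the other way, −0.02 with 5 of 15 lower and 2 higher, against −0.15 with 23 lower and 5 higher of the 52 without it. The median of B minus A in the GABP set was −0.79 with shCTR and −0.56 with shMettl14, against −0.31 and −0.46 without the word. These values are descriptions and were given no test, and over all genes 27.7% were lower and 30.0% higher in both letters.

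The 13 genes of the mitochondrial genome moved the other way between letters. Their counts made up 1.66% and 3.46% of the library in shCTR A and B and 1.89% and 2.36% in shMettl14 A and B. The shCTR B library stood above the rest, and the shMettl14 libraries lay between the shCTR libraries. In B, 12 of 13 were above A with both hairpins, with median differences of 0.86 log2 units with shCTR and 0.35 with shMettl14. Summed endothelial markers, led by Cdh5 and Pecam1, had the same order of libraries, highest in shCTR B and lowest in shCTR A. Summed fibroblast markers, led by Dcn, had this order too. They stood at 84.4, 171, 87.5 and 129 CPM in shCTR A, shCTR B, shMettl14 A and shMettl14 B. Not every marker followed it: Tie1 had 19425, 14700, 18782 and 17493 counts in shCTR A, shCTR B, shMettl14 A and shMettl14 B. Vwf had 1989, 2043, 1945 and 2410 counts, and Pdgfra, of the fibroblast list, had 1649, 1124, 1667 and 1031. The part of these markers in this result was not tested. The 2 ribosomal RNAs of the mitochondrial genome, which are not messenger RNAs, took 0.0573% to 0.0803% of counts.

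Against the hairpin, the 13 genes had a median log2 fold change of −0.28, from letter medians of −0.01 in A and −0.45 in B, and 0.17 without shCTR B. In both letters 6 were lower and 0 higher (46.2% and 0%, against 27.7% and 30.0% of all genes), 6 were higher in A and lower in B (20.3% of all genes), and 1 was the reverse. With library totals alone, 3 were lower and 2 higher in both letters. Only mt-Co2 and mt-Nd4l had both shMettl14 libraries below both shCTR libraries, as 13.3% of all genes had. Both belong to the 6 genes, described below, whose counts may not be those of their messages. So do 3 of the 6 genes lower in both letters. None of the 13 had a p under 0.05, adjusted or not, in the main edgeR fit.

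Levels along the mitochondrial genome differed by orders of magnitude, although its genes are transcribed as long precursors that are cut at the transfer RNAs. Averaged over libraries, mt-Co1 stood at 7200 CPM per kb, mt-Cytb at 3048, mt-Nd1 at 2612, mt-Nd5 at 1519, mt-Nd2 at 1462, mt-Nd6 at 1309 and mt-Nd4 at 1096. The other 6 lay between 0.863 CPM per kb (mt-Atp8) and 26.4 CPM per kb (mt-Nd3), below most nuclear members. They occupy adjacent places between mt-Co1 and mt-Nd4.

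In 5 of these 6, nearly every 100-base window is identical to sequence in another annotated gene, chiefly a chromosome 1 pseudogene: 99.5% of mt-Co2, 99.9% of mt-Co3, 99.5% of mt-Atp6, 97.6% of mt-Nd3 and 98.5% of mt-Nd4l. In the 7 abundant genes the share was 60.8% for mt-Nd4, 30.8% for mt-Co1, 3.2% for mt-Nd2 (there with Gm13339 on chromosome 2) and 0% for mt-Nd1, mt-Nd5, mt-Nd6 and mt-Cytb. For mt-Atp8 it was also 0% among annotated genes, and mt-Atp8 lies between mt-Co2 and mt-Atp6, whose copies are neighbours in the chromosome 1 block. Some copies had counts near those of the genes. Gm28661 had 822, 1079, 658 and 933 counts in shCTR A, shCTR B, shMettl14 A and shMettl14 B, where mt-Co2 had 912, 991, 627 and 871. Others did not: Gm28438 had 64, 68, 81 and 104 counts, where mt-Nd3 had 1020, 809, 1053 and 1490. How reads that fit several places were counted is not stated, so the levels of the 6 genes may not be those of their messages. The same holds in part for mt-Co1 and mt-Nd4, and for shares of counts taken over the 13 genes. None of this was tested. This split of the 13 genes was chosen after their values were seen.

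**Figure D4:**
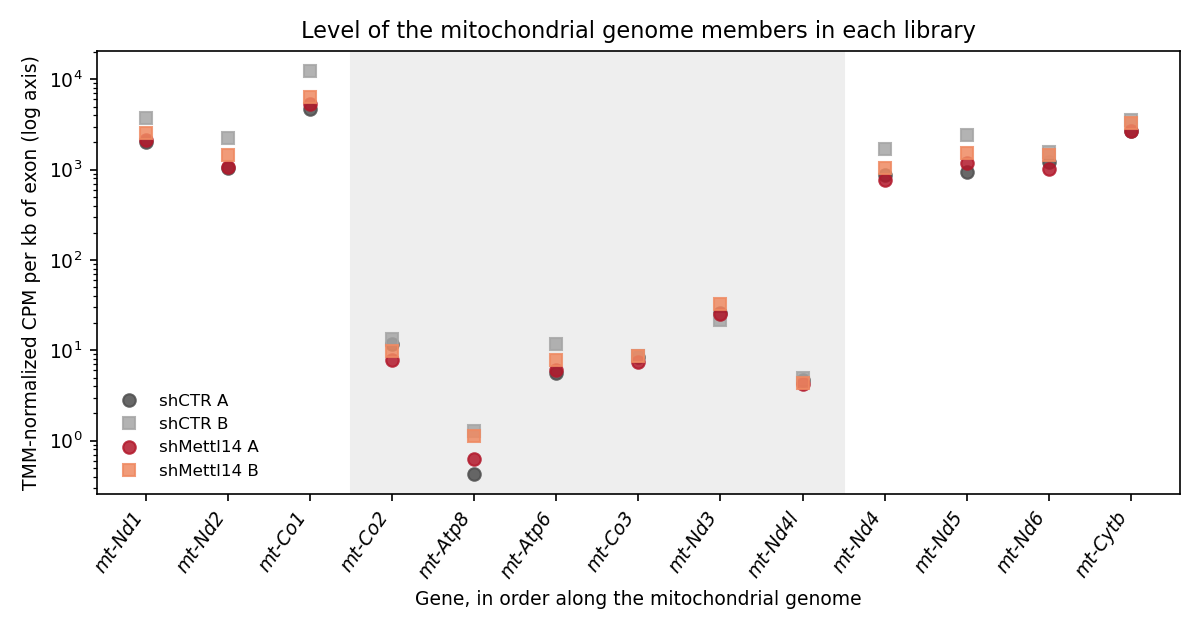
TMM-normalized CPM per kb of exon (vertical, log axis) for the 13 mitochondrial genes in their order along the genome (horizontal), with circles for letter A, squares for letter B, grey for shCTR and red or orange for shMettl14. The 6 genes on the shaded ground, mt-Co2 to mt-Nd4l, lie at 26.4 CPM per kb or less on average, and the 7 others at 1096 or more.

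The 7 abundant genes differed between hairpins in letter B more than in letter A, with median log2 ratios of −0.63 and 0.05. For mt-Co1, which encodes the catalytic subunit of complex IV and took 42.6% to 52.2% of mitochondrial counts, the levels were 7201 and 19151 CPM in shCTR A and B and 8218 and 9927 CPM in shMettl14 A and B. The shCTR B library was far above the others, and the log2 fold change of −0.54 (SE 0.48) became 0.33 without it. Complex I subunit mt-Nd5 followed the same pattern at 1711, 4435, 2159 and 2779 CPM, and its log2 fold change of −0.32 (SE 0.48) became 0.53 without shCTR B. Also highest in shCTR B were mt-Nd1, at 1951, 3534, 2055 and 2457 CPM, and mt-Nd2, at 1080, 2353, 1119 and 1521 CPM.

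Complex I subunit mt-Nd4 was at 1213 and 2327 CPM with shCTR and 1051 and 1452 CPM with shMettl14, lower in both letters (−0.21 and −0.68), and 0.04 without shCTR B. Cytochrome b of complex III, mt-Cytb, was at 3091, 4026, 3062 and 3768 CPM the narrowest range in proportion among the 7, with a log2 fold change of −0.06 (SE 0.23). The gene on the other strand of the mitochondrial genome, mt-Nd6, was at 638, 813, 521 and 747 CPM, lower in both letters (−0.29 and −0.12), and 0.045 without shMettl14 A. It was higher in B than in A with both hairpins, as the abundant genes of the other strand were.

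Among the 6 low genes, mt-Co2, a copper-binding subunit of complex IV, had 8.03 and 9.18 CPM with shCTR and 5.28 and 6.70 CPM with shMettl14, a log2 fold change of −0.52 (SE 0.29). Its chromosome 1 copy Gm28661 also had its lowest count in shMettl14 A. For mt-Co3 the levels were 6.62, 6.81, 5.79 and 6.74 CPM, and for mt-Nd4l 1.38, 1.47, 1.26 and 1.28 CPM, close together in all libraries. The ATP synthase gene mt-Atp6 was at 3.85, 7.97, 4.18 and 5.32 CPM, and mt-Atp8, which overlaps it over 21.1% of its own bases, had only 10, 28, 15 and 30 counts. The exception to the order of letters was mt-Nd3, at 8.98 and 7.49 CPM with shCTR and 8.87 and 11.5 CPM with shMettl14, with the highest log2 fold change of the 13 (0.30, SE 0.29).

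Genes that build and supply the chain were described from lists of known function. Of 46 assembly factors tested, 14 were lower and 10 higher in both letters (30.4% and 21.7%, against 27.7% and 30.0% of all genes), with a median log2 fold change of −0.02. Nubpl, which inserts iron-sulphur clusters into complex I, had the largest change of that list at 100 counts or more, 0.59 (SE 0.46), with 452 and 204 counts in shCTR A and B and 523 and 578 in shMettl14 A and B. Of 16 electron carrier genes, 7 were lower and 3 higher (43.8% and 18.8%), and Coq4, of ubiquinone synthesis, had 883, 493, 488 and 567 counts and a log2 fold change of −0.54 (SE 0.38).

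Of 26 genes that replicate, transcribe or process mitochondrial DNA and RNA, 8 were lower and 6 higher in both letters (30.8% and 23.1%), with a median of −0.01. Tfam, which packs mitochondrial DNA and starts its transcription, had 2507, 2815, 2481 and 3473 counts in shCTR A, shCTR B, shMettl14 A and shMettl14 B (log2 fold change −0.02, SE 0.24). Mterf1a, a transcription terminator, had 222 and 292 counts with shCTR and 185 and 203 with shMettl14 (−0.58, SE 0.39). Of 13 regulators of mitochondrial biogenesis, 4 were lower and 3 higher in both letters (30.8% and 23.1%). Ppargc1a, which encodes PGC-1 alpha, had 8, 33, 26 and 41 counts, too few for a comparison. Gabpb1, a subunit of the GABP complex, had 3968 and 6169 counts with shCTR and 4052 and 5192 with shMettl14, the largest change of that list at 100 counts or more (−0.31, SE 0.30). None of the genes named from these lists passed an adjusted p under 0.05 in edgeR.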

How the data were processed

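The deposited values are counts per gene, made by the authors from poly-A, strand-marking paired-end libraries with STAR on GRCm38 and featureCounts, and not normalized. Whether counting used strand and how reads on several places were treated are not given in the sources used here. From the counts, edgeR 4.0.16 in R 4.3.3 (TMM, filterByExpr, robust quasi-likelihood test of shMettl14 against shCTR over 18916 genes, no block, Benjamini-Hochberg adjustment) gave log2 fold changes and standard errors, and a prior count of 2 was used for ratios within letters. DESeq2 1.42.0, other scalings, other filters, a replicate block and each library left out were alternatives. The fit was tested on simulated data with a fixed spread and no difference between letters, so that check does not cover the spread of these libraries. With 2 libraries per group the precision is set by the libraries and not by counting, and a gene at 0 could have up to 3 counts, or 0.0262 CPM. Lengths, overlaps and shared 100-base windows came from GENCODE M21 transcripts. Named genes were all mitochondrial members, the most abundant, most raised and most lowered of each family, isoform sets, members at an unadjusted p under 0.05, members at the count minimum, and the gene of largest change in each list; Ndufs1, Ndufs7, Ndufs8, Ndufb4, Ndufb10, Ndufa7, Ndufa11, Cox6a1, Uqcrb, Tfam and Ppargc1a were added after their values were seen. A gene that this rule names is not reported here. The members and lists were chosen with earlier results of these data known.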

Additional observations from a re-analysis of the deposited data

How the results depend on the processing

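With 2 libraries per group, and no source that pairs the letters, single libraries decide many values, and levels of mitochondrial genes and copies depend on unstated counting. No member passed an adjusted p under 0.05 in any setting. Nuclear members lower at an unadjusted p numbered 1 in the main comparison, 2 with no filter beyond 1 count, and 0 to 4 with each library left out, and those higher numbered 0 and 0 to 5. The 4 lower, without shMettl14 A, stand beside 0.460% of all genes, and the 5 higher, without shCTR A, beside 4.82%. Mitochondrial members lower at an unadjusted p numbered 0, and 5 of 13 without shCTR A, where 2.08% of all genes were. Genes past an adjusted p numbered 0, 5 with DESeq2, and 0 to 1 with each library left out. With library totals only, nuclear members higher in both letters numbered 16, mitochondrial members higher in both 2 and lower in both 3. Their cause was not tested. With each library left out, the median log2 fold change ranged from −0.36 to 0.10 (nuclear) and from −0.61 to 0.17 (mitochondrial).

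With the letter as a replicate block, 9 genes passed an adjusted p under 0.05 and 13 nuclear members were lower and 2 higher at an unadjusted p under 0.05, where 5.55% and 4.72% of all genes were, and 2 mitochondrial members were lower. Cox4i1 then had an unadjusted p of 0.0030 and an adjusted p of 0.26 in edgeR. Deviations from the group means correlated between libraries of the same letter (r = 0.58), which with 2 pairs does not establish the pairing. The replicate block also turned Sdhb to 0.043, Sdhd to 0.060 and Atp5g2 to 0.097.

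Other reversals outside the left-out libraries lay near 0. Upper-quartile factors gave 0.020 for Sdhb and 0.016 for Sdhd. No filter beyond 1 count gave 0.0056 for Sdhb and 0.0014 for Sdhd, and at least 10 counts in every library gave 0.0091 and 0.0064.

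With each library left out, log2 fold changes that changed sign ranged as follows. Among mitochondrial genes, mt-Nd1 ranged from −0.64 to 0.21, mt-Nd2 from −0.83 to 0.29, mt-Co1 from −1.07 to 0.33, mt-Atp8 from −0.53 to 1.01, mt-Atp6 from −0.74 to 0.30, mt-Co3 from −0.21 to 0.0071, mt-Nd4 from −0.89 to 0.042, mt-Nd5 from −0.84 to 0.53, mt-Nd6 from −0.47 to 0.045 and mt-Cytb from −0.23 to 0.14. In complexes II and III, Sdha ranged from −0.087 to 0.00083, Sdhb from −0.33 to 0.42, Sdhc from −0.51 to 0.13, Sdhd from −0.42 to 0.57, Uqcrc1 from −0.41 to 0.0071 and Uqcrq from −1.46 to 0.064. Among Cox genes, Cox6b2 ranged from −0.017 to 0.83, Cox4i2 from −1.01 to 0.23, Cox7a1 from −0.047 to 0.51, Cox7a2 from −0.35 to 0.11, Cox7a2l from −0.14 to 0.018 and Cox8a from −1.07 to 0.56. Among Atp5 genes, Atp5k ranged from −0.23 to 1.49, Atp5g1 from −0.71 to 0.37, Atp5g2 from −0.64 to 0.90 and Atp5g3 from −0.54 to 0.49.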

Other observations

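Genes of the citric acid cycle, which feeds the chain with NADH and succinate, had a median log2 fold change of −0.16, and of 16 tested 10 were lower and 3 higher with shMettl14 in both letters (all genes, 27.7% and 30.0%). Idh3g, a regulatory subunit of isocitrate dehydrogenase, had 7623 and 10193 counts in shCTR A and B and 6413 and 7226 in shMettl14 A and B, with a log2 fold change of −0.56 (SE 0.24, unadjusted p of 0.067 and adjusted p of 1.0 in edgeR). In this list 18.8% of genes were lower in B than in A with both hairpins, where 36.7% of all genes were. The share was 23.1% in the genes for mitochondrial DNA and RNA and 38.5% in the biogenesis regulators. It was 60.9% in the assembly factors, 62.5% in the electron carriers, 59.2% in the mitochondrial ribosome and 50.6% in the cytosolic ribosome. In the nuclear subunits of the chain it was 66.2%.

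The mitochondrial ribosome, which translates the 13 mitochondrial messages, had 49 of 76 tested genes lower in both letters (64.5%, against 27.7% of all genes) and 1 higher (1.32%, against 30.0%), the median log2 fold change being −0.23. In 31 of them both shMettl14 libraries were below both shCTR libraries, where 13.3% of all genes were, and 2 had an unadjusted p under 0.05 and a negative fold change, where 1.01% of all genes did. Mrpl34 had 3555 and 3338 counts with shCTR and 2714 and 1741 with shMettl14 (−0.78, SE 0.31). Mrps23 had 4141, 4062, 2960 and 3326 counts in shCTR A, shCTR B, shMettl14 A and shMettl14 B (−0.55, SE 0.19, unadjusted p of 0.035 in edgeR). The cytosolic ribosome, with 85 tested genes, had 31 lower and 7 higher in both letters (36.5% and 8.24%) and a median of −0.10, and its largest change was in Rpl6l (−0.78, SE 0.40). Whether these lists differ from the subunits of the chain was not tested.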
